A study of Mus musculus with 24 samples.

Results

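The plasma membrane amino acid transporters described here were the genes of 8 solute carrier families, chosen by name. A probe was a member when the gene name in the scanner files began with Slc1a, Slc3a, Slc6a, Slc7a, Slc36a, Slc38a or Slc43a and a number, or was Slc16a10. This gave 123 of the 56605 probes on the array and 67 of 37074 gene names. The rule used no measured value. It also takes in genes that carry no amino acid: Slc43a3 carries purine nucleobases, Slc6a4 carries serotonin, Slc7a6os encodes another protein on the opposite strand, and Slc36a1os, Slc36a3os and Slc6a19os are opposite-strand transcripts.

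Liver RNA came from male C57Bl6J mice of the third generation of their lineage, killed while fasting, with 1 array per mouse. The reference group, labelled STD_Cont, held 9 mice of the control lineage, whose breeding diet held sunflower oil rich in oleic acid, on a low-fat diet. The HFoleic group, labelled HFD_Cont, held 8 mice of the same lineage on a high-fat, high-sucrose diet, and the HFepa group, labelled HFD_O3, held 7 mice on that diet from the n-3PUFA lineage, whose breeding diet held a fish oil mainly of eicosapentaenoic acid (EPA). The ages of the mice are not given in the sources used here. The samples held no EPA-lineage mice on the low-fat diet, so in HFepa against reference the diet cannot be told apart from the lineage and its oil. How far mice of a group shared litters or cages is not given, and the p-values measure the spread between these mice.

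Amino acids cross the cell membrane through carriers that differ in what they take and in what drives them. Many carriers of the Slc1, Slc6 and Slc38 families draw amino acids in with sodium. Those Slc7 members that are light subunits swap them, and work only when paired with a heavy subunit of the Slc3 family. Slc16a10 and the Slc43 carriers let them move down their gradient. In liver amino acid carriers feed the urea cycle, gluconeogenesis and protein synthesis. Their activity in fasting helps to set how much alanine and glutamine is taken from the blood. A shortage of amino acids induces several of them through the transcription factor ATF4, which binds composite sites with C/EBP proteins.

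Promoters are shown for the carriers that passed the test below and have an entry in the RefSeq promoter table (GRCm38.p6, 250 bases before to 50 after the transcription start), Slc1a4 and Slc16a10, with that of Slc7a11, the cystine carrier known as an ATF4 target, for comparison. The motif searched was TGATGNAA, the core of the C/EBP-ATF composite element, on both strands, and matches are in capitals. The Slc1a4 window is chr11:20332664-20332963, the Slc16a10 window is chr10:40142205-40142504 and the Slc7a11 window is chr3:50443564-50443863, all on the minus strand.
Slc1a4: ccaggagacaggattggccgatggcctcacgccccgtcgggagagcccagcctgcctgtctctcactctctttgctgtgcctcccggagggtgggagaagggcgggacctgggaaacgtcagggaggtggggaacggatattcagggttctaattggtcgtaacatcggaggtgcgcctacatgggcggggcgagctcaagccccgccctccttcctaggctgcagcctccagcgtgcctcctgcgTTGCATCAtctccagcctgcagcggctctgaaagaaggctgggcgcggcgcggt
Slc16a10: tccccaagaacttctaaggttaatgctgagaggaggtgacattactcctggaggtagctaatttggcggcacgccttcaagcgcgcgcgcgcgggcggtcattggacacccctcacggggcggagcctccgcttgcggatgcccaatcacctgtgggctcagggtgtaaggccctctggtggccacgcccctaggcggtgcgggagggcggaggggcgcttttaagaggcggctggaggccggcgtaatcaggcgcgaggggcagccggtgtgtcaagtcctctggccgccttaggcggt
Slc7a11: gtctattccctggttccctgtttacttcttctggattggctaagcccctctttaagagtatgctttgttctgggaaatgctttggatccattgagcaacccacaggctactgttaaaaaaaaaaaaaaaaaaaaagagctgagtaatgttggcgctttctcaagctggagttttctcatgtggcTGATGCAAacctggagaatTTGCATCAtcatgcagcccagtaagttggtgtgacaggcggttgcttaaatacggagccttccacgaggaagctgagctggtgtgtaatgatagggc
The Slc1a4 window held 1 match, on the reverse strand and beginning 4 bases before the start site, and the Slc7a11 window held 2 matches that share no base, beginning 66 and 47 bases before it. Slc16a10 had no match in its window. The table held 70 windows of 49 member genes, and 4 windows of 3 genes (Slc1a4, Slc7a7 and Slc7a11) held a match. That is 5.71%, beside 3.97% of all 32851 windows. The Slc7a7 windows with a match overlap and share a match site, which is therefore counted in both. A match is a string of letters and was not tested for binding.

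Between 28804 and 34432 probes per array were well above background, and 0 spots were saturated. Reference replicate 5 stood apart from its group, with a median correlation across probes of 0.976 with the other reference arrays. The same value was 0.987 to 0.993 for every other array within its own group. The summed signal of the bile duct markers was 13.4 (log2) in that mouse and 10.4 to 11.4 in the other reference mice, with Krt7, Krt19, Sox9 and Spp1 tested of 5 markers and Epcam not tested. Its pericentral hepatocyte markers, 8 of 8 tested, summed to 17.6 against 18.3 to 18.5, and its periportal hepatocyte markers, 7 of 7 tested, to 19.1 against 18.5 to 18.8. Calls that rest on this mouse are given with and without it, as are some other estimates. The hepatocyte markers, 7 of 7 tested, summed to between 20.2 and 20.4 on every array. Reference replicate 5 had the lowest sum, 20.16, beside 20.29 to 20.37 in the other reference mice. In its group it also had the highest macrophage (14.78), stellate cell (15.97) and lymphocyte and neutrophil sums (10.63). The others reached at most 14.61, 15.73 and 10.60. Its sinusoidal endothelial (13.63), red cell (16.78) and skeletal muscle sums (7.70) were the lowest, with the others at 13.76, 16.81 and 7.75 or more.

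In fasted liver a large part of these families was at or below the reach of the array. A probe was tested when 1 or more groups had it well above background on 75% or more of their arrays, and 60 of the 123 member probes passed, for 39 of the 67 genes. Because a probe could pass through 1 group alone, the tested probes are not all members, and nothing is read from them about the rest. Of the tested genes, 36 had a probe well above background on all 24 arrays. Slc38a3 and Slc38a4, the liver carriers of systems N and A, and Slc7a2, the liver carrier of arginine and lysine, were among these. For 28 genes no probe was tested, and for 6 of them, Slc36a1os, Slc36a3, Slc6a3, Slc6a14, Slc6a19 and Slc7a3, no probe was well above background on any array.

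The light subunits that pair with a heavy subunit were the least seen. Of 9 genes, 2 had a tested probe, Slc7a7 and Slc7a8. Slc7a5, the large neutral amino acid exchanger LAT1, was well above background on 6 reference, 2 HFoleic and 3 HFepa arrays. Slc7a11 reached 0 reference, 1 HFoleic and 2 HFepa arrays with its best probe. Both heavy subunits were tested. In the Slc1 family the tested genes were Slc1a2, Slc1a4 and Slc1a5, and the glutamate carrier Slc1a7, on 14 of 24 arrays, came nearest of the untested members.

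HFoleic was first set against reference, to ask what the obesogenic diet changed in the control lineage. Slc1a4, Slc1a5, Slc7a2 and Slc43a3 were lower in HFoleic and Slc16a10 was higher, each read from its brightest tested probe. These 5 probes were 8.33% of the 60 tested member probes, beside 7.23% of all 30003 tested probes, so the share called was near that of the whole array. By direction, 4 members (6.67%) were lower beside 3.19% of all probes, and 1 (1.67%) was higher beside 4.05%. At an unadjusted p under 0.05 there were 16 member probes (26.7%), 12 of them lower, beside 21.1% of all probes. The median change of the member probes was -0.04 log2 units and their median absolute change 0.11, against -0.00072 and 0.096 over all probes.

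**Figure D1:**
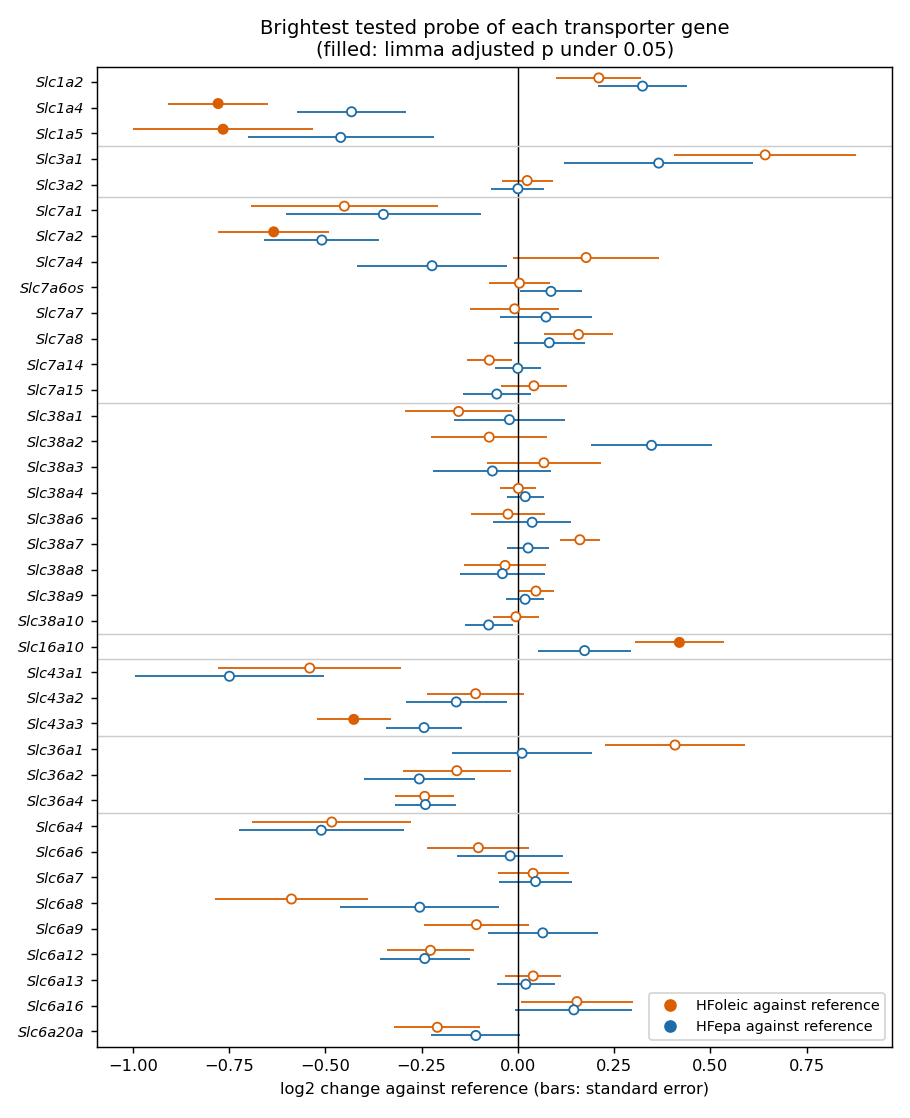
Log2 change against reference for 38 of the 39 tested genes, by family, in HFoleic (orange) and HFepa (blue); points are limma estimates from the brightest tested probe and bars their standard errors, with filled points at an adjusted p under 0.05. The 5 filled points are all HFoleic: Slc1a4 (-0.78), Slc1a5 (-0.77), Slc7a2 (-0.63) and Slc43a3 (-0.43) to the left and Slc16a10 (0.42) to the right, and the blue points were estimated against the same reference arrays.

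Slc1a4, the sodium-dependent carrier ASCT1 of alanine, serine, cysteine and threonine, had the smallest adjusted p of the members. Its signal (log2, quantile-normalized) ran from 11.87 to 12.82 in the reference mice with a median of 12.55, and from 11.35 to 12.06 with a median of 11.74 in HFoleic. The groups overlapped through 1 mouse: 8 of 9 reference mice lay above every HFoleic mouse, and all 8 HFoleic mice lay below the reference mean. The change was -0.78 ± 0.13 log2 units (SE), a level 0.583 times that of reference, with a limma adjusted p of 0.00129. In HFepa, where 1 array (replicate 4) had an outlier spot and was left out, the signal ran from 11.59 to 12.56 with a median of 12.04 (n = 6). The HFepa level lay 0.43 ± 0.14 log2 units below reference (a change of -0.43, limma adjusted p = 0.156).

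The HFoleic change in Slc1a4 was -0.85, -0.60 and -0.87 within the 3 slides, and -0.78 and -0.77 within the 2 rows of arrays on a slide. Without reference replicate 5 it was -0.76 (limma adjusted p = 0.0023). The probe lies on chromosome 11, 20202615 to 20202674 (mm9). What part of the transcript any probe named here covers was not annotated, because the gene table at hand is of another build.

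Slc1a5, the glutamine exchanger ASCT2 of the same family, was lower by a similar amount but with less precision. The reference values ran from 6.78 to 8.79 with a median of 7.30, those of HFoleic from 6.44 to 7.07 with a median of 6.78, and those of HFepa from 6.57 to 7.50 with a median of 7.10. The spread was wide in the reference group alone (SD 0.76, n = 9, against 0.20, n = 8, in HFoleic), and 6 of 9 reference mice lay above every HFoleic mouse. The change in HFoleic was -0.77 ± 0.23 (limma adjusted p = 0.0451) and that in HFepa -0.46 ± 0.24 (limma adjusted p = 0.422).

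This call was close to the threshold and rested on few mice. Reference replicates 4 and 5 stood at 8.71 and 8.79, and the other 7 reference mice at 6.78 to 7.68. With both left out, a choice made after seeing the data, the HFoleic change was -0.41 (limma adjusted p = 0.0833) and the HFepa change -0.11 (limma adjusted p = 0.843). The call was lost in 16 of 24 fits that left out 1 array, those of reference replicates 1, 3, 4, 5, 6 and 7, HFoleic replicates 1, 2, 4, 5, 6, 7 and 8 and HFepa replicates 3, 6 and 7. The adjusted p in those fits lay between 0.0506 and 0.0836. The change within slides was -0.81, -0.53 and -0.99. The probe lies on chromosome 7, 17383359 to 17383418 (mm9).

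The adipocyte markers, of which Plin1, Cfd, Retn and Lep were tested and Adipoq was not, were also high in those mice. Their summed signal was 12.6 and 12.1 in reference replicates 4 and 5 and 8.78 to 11.4 in the other reference mice. It ran from 8.87 to 13.4 in HFoleic and from 8.74 to 12.5 in HFepa. Replicates 4 and 5 also led the reference group for macrophages (14.61 and 14.78), stellate cells (15.73 and 15.97) and lymphocytes and neutrophils (10.60 and 10.63). The other reference mice reached at most 14.54, 15.62 and 10.58. For periportal hepatocytes replicates 4 and 5 stood at 18.82 and 19.13, and the other reference mice at 18.74 or less. The part of these markers in the Slc1a5 values was not tested.

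Slc7a2 encodes CAT-2, the carrier through which hepatocytes take up arginine, lysine and ornithine. The reference values ran from 10.56 to 12.02 with a median of 11.03, those of HFoleic from 10.14 to 10.65 with a median of 10.39, and those of HFepa from 10.07 to 10.72 with a median of 10.58. Of the reference mice, 8 of 9 lay above every HFoleic mouse and 6 of 9 above every HFepa mouse. The change was -0.63 ± 0.14 in HFoleic (limma adjusted p = 0.00801) and -0.51 ± 0.15 in HFepa (limma adjusted p = 0.114), the smallest adjusted p of any member in that comparison.

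Reference replicate 5 had the highest Slc7a2 signal, 12.02, and the other 8 reference mice lay between 10.56 and 11.13. Without it the HFoleic change was -0.51 (limma adjusted p = 0.00491) and the HFepa change -0.38 (limma adjusted p = 0.113). The change in HFoleic was -1.05, -0.45 and -0.41 within the 3 slides. The probe lies on chromosome 8, 42003321 to 42003380 (mm9).

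Slc16a10, the uniporter TAT1 of tyrosine, phenylalanine and tryptophan, was the only member called higher. Its brightest probe read 8.88 to 9.70 in reference with a median of 9.24, 9.45 to 10.22 in HFoleic with a median of 9.65, and 9.19 to 9.91 in HFepa with a median of 9.44. All 8 HFoleic mice lay above the reference mean, and 6 of 9 reference mice lay below every HFoleic mouse. The change was 0.42 ± 0.12 in HFoleic (limma adjusted p = 0.027) and 0.17 ± 0.12 in HFepa (limma adjusted p = 0.581).

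This rise was seen with 1 of 3 probes. The called probe lies on chromosome 10, 39756480 to 39756539 (mm9), and the others at 39796577 to 39796636 and 39852910 to 39852969 on the same chromosome read changes of 0.07 and -0.05, neither called. The call was lost without HFoleic replicate 2 (0.35, limma adjusted p = 0.0597), HFoleic replicate 7 (adjusted p = 0.0552), reference replicate 1 (adjusted p = 0.0589) or reference replicate 3 (adjusted p = 0.0539). Within slides the change was 0.43, 0.51 and 0.27, and within rows 0.62 and 0.20.

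Slc43a3, which carries purine nucleobases and is a member by name alone, was called lower with its brighter probe. That probe, on chromosome 2 at 84797987 to 84798046 (mm9), read 10.69 to 11.47 in reference (median 11.07), 10.30 to 10.95 in HFoleic (median 10.63) and 10.58 to 11.01 in HFepa (median 10.89). Of the reference mice, 7 of 9 lay above every HFoleic mouse. The change was -0.43 ± 0.10 in HFoleic (limma adjusted p = 0.00755) and -0.24 ± 0.10 in HFepa (limma adjusted p = 0.271). The dimmer probe of the gene, at 84788171 to 84788230, read 0.06 ± 0.09 in HFoleic. Without reference replicate 5 the brighter probe read -0.38 (limma adjusted p = 0.0127).

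**Figure D2:**
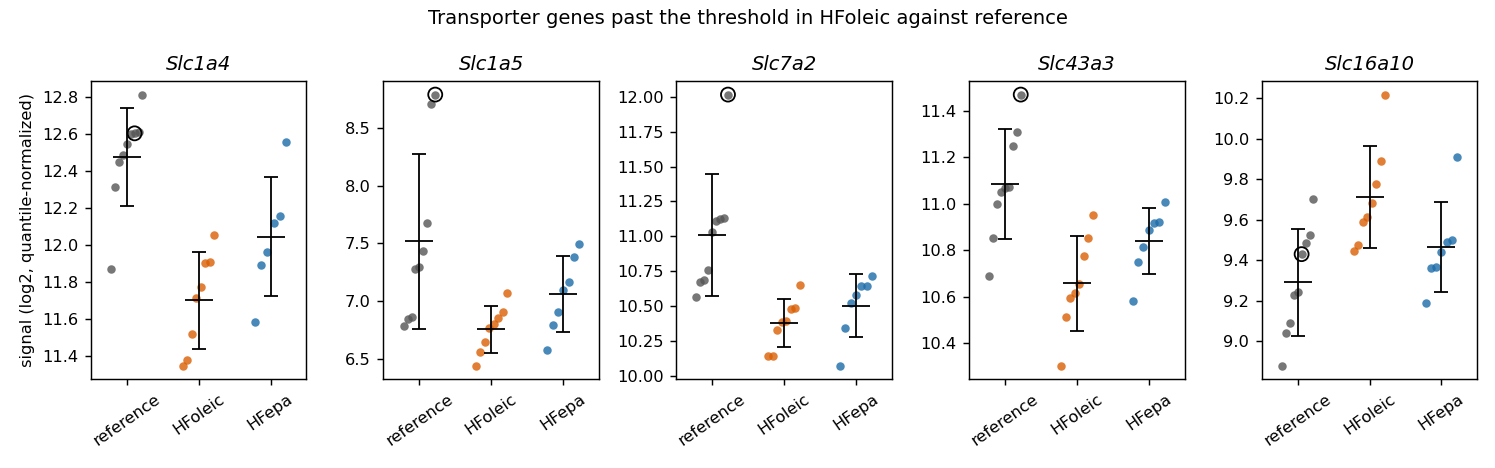
Signal per mouse (log2, quantile-normalized) of the 5 genes called in HFoleic against reference, for 9 reference, 8 HFoleic and 7 HFepa mice (6 for Slc1a4), with the group mean and SD in black and reference replicate 5 ringed. HFoleic mice lay low for Slc1a4, Slc1a5, Slc7a2 and Slc43a3 and high for Slc16a10, and HFepa means lay between those of the other groups in every panel; the axes begin at different signals.

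Some markers of periportal hepatocytes were also called in HFoleic. Of 7 tested, Sds, Gls2 and Pck1 were lower in HFoleic, and 0 were higher, beside 3.19% and 4.05% of all probes. Hal (-0.10), Hsd17b13 (-0.15), Ass1 (-0.38) and Cyp2f2 (0.10) were not called. Their summed signal was 18.5 to 19.1 in reference, or 18.5 to 18.8 without reference replicate 5, 18.2 to 18.6 in HFoleic and 18.3 to 18.8 in HFepa. Elsewhere in HFoleic, Lgr5 of 8 pericentral markers and Lrat of 7 stellate cell and fibroblast markers were higher, Sox9 of 4 bile duct markers and Cps1 of 7 hepatocyte markers were lower, and 0 tested markers of macrophages, sinusoidal endothelium, lymphocytes and neutrophils, red cells, adipocytes, exocrine pancreas, skeletal muscle or kidney were called. In HFepa against reference 0 markers of any list were called, beside 0.393% of all probes. The 7 periportal markers there had a median change of -0.29, with 5 negative and 4 at an unadjusted p under 0.05. In HFoleic their median was -0.38, with 6 negative and 4 at that level. Fewer cells of a type and less RNA per cell cannot be told apart in whole liver, and the part of these markers in the transporter values was not tested.

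Just outside the threshold in HFoleic against reference stood Slc36a4, Slc38a7 and Slc6a8. Slc36a4, a proton-independent carrier of proline and tryptophan, stood at -0.24 ± 0.08 (limma adjusted p = 0.0551). Slc38a7, a lysosomal exporter of glutamine, stood at 0.16 ± 0.05 (adjusted p = 0.0641), with 7 of 9 reference mice below every HFoleic mouse. Slc6a8, the creatine carrier, stood at -0.59 ± 0.20 (adjusted p = 0.0732), and its second probe at -0.39. Without reference replicate 5, whose Slc6a8 signal was 11.6 against 9.58 to 10.31 in the other 8 reference mice, the Slc6a8 change was -0.41 (adjusted p = 0.0714). Slc36a4 passed the threshold with the processed signal (-0.45, adjusted p = 0.0453) and without reference replicate 8 (adjusted p = 0.0203) or 9 (0.0195), Slc38a7 without reference replicate 3 (0.0416) or 9 (0.0438), and Slc6a8 without HFoleic replicate 3 (0.0404) or reference replicate 2 (0.0446).

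Neither heavy subunit was called in any comparison with all 24 arrays. Slc3a2, the 4F2 heavy chain that brings LAT1 and other exchangers to the membrane, read 0.02 ± 0.07 in HFoleic and 0.00 ± 0.07 in HFepa, and its 3 tested probes ranged from -0.08 to 0.07 in HFoleic. Slc3a1, the heavy subunit of the cystine and dibasic amino acid exchanger, read 9.04 to 10.86 in reference with a median of 9.58, 9.64 to 11.21 in HFoleic with a median of 10.11, and 9.21 to 10.57 in HFepa with a median of 10.06. The estimate was 0.64 ± 0.24 in HFoleic (limma adjusted p = 0.103) and 0.37 ± 0.25 in HFepa (limma adjusted p = 0.561). Reference replicate 5 was again the highest of its group, at 10.86 against 9.04 to 10.04, and without it the HFoleic difference passed the threshold at 0.79 (limma adjusted p = 0.0239). The light subunit Slc7a8 (LAT2) stood at 0.16 ± 0.09 (adjusted p = 0.325), and at 0.23 without that mouse (adjusted p = 0.0499).

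Cationic amino acid carriers of Slc7 other than Slc7a2 did not pass the threshold. Slc7a1 (CAT-1) read 6.32 to 8.77 in reference, 6.44 to 7.06 in HFoleic and 6.56 to 7.37 in HFepa. As with Slc1a5, reference replicates 4 and 5 stood apart, at 8.77 and 8.44, and the other 7 reference mice lay between 6.32 and 7.02. The HFoleic estimate of -0.45 ± 0.24 (limma adjusted p = 0.298) was -0.26 without replicate 4, -0.30 without replicate 5 and -0.05 without both. Slc7a4, of unclear substrate, stood at 0.18 ± 0.19 in HFoleic and -0.22 ± 0.20 in HFepa.

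The Slc38 family holds sodium-coupled carriers of alanine and glutamine at the cell surface and some lysosomal members, and 0 of its tested probes were called by limma. Slc38a4 (SNAT4), the system A carrier abundant in liver, stood at 0.00 ± 0.05 in HFoleic and 0.02 ± 0.05 in HFepa, with 95% intervals of -0.09 to 0.10 and -0.08 to 0.12. Its second probe read -0.22 ± 0.08 in HFoleic (limma adjusted p = 0.0788) and -0.23 ± 0.08 in HFepa. Slc38a3 (SNAT3), the system N carrier of glutamine and histidine, stood at 0.07 ± 0.15 and -0.07 ± 0.15. Slc38a9, the lysosomal arginine sensor of mTORC1, stood at 0.05 ± 0.05 and 0.02 ± 0.05.

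Slc38a2 (SNAT2), the system A carrier that cells raise when amino acids run short, read 11.47 to 12.43 in reference (median 11.97), 11.53 to 12.27 in HFoleic (median 11.85) and 11.82 to 12.86 in HFepa (median 12.26). The estimate was -0.07 ± 0.15 in HFoleic and 0.35 ± 0.16 in HFepa (limma adjusted p = 0.329). Its second probe stood at 0.21 ± 0.15 in HFoleic and 0.08 ± 0.15 in HFepa.

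Among the uniporters, Slc43a1 (LAT3), a carrier of leucine and other branched-chain amino acids, had the most negative estimate of any member in HFepa. It read 6.78 to 8.40 in reference (median 7.75), 5.86 to 7.87 in HFoleic (median 7.19) and 6.46 to 7.60 in HFepa (median 6.92). All 7 HFepa mice lay below the reference mean, and the groups overlapped. The estimate was -0.75 ± 0.25 in HFepa (limma adjusted p = 0.157) and -0.54 ± 0.24 in HFoleic (limma adjusted p = 0.183), and its second probe read -0.04 and -0.28. Slc43a2 (LAT4) stood at -0.16 ± 0.13 in HFepa and -0.11 ± 0.13 in HFoleic, and at -0.05 and 0.00 without reference replicate 5. Its dimmer probe read -0.18 in HFepa and -0.46 in HFoleic and was not called.

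**Figure D3:**
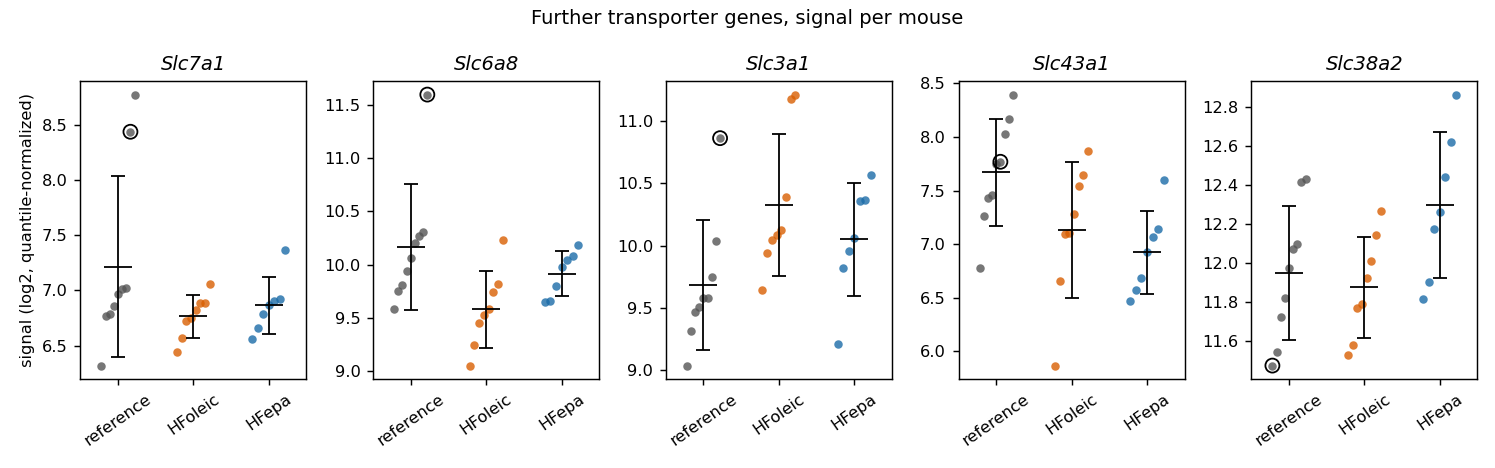
Signal per mouse (log2, quantile-normalized) of Slc7a1, Slc6a8, Slc3a1, Slc43a1 and Slc38a2, none of them called, with group mean and SD in black and reference replicate 5 ringed. The ringed mouse was the highest reference mouse for Slc6a8 (11.6) and Slc3a1 (10.86) and the lowest for Slc38a2 (11.47), and 2 reference mice lay apart for Slc7a1 (8.77 and 8.44); the axes begin at different signals.

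Carriers of osmolytes, transmitters and glycine in Slc6 gave no call. The betaine carrier Slc6a12 stood at -0.23 ± 0.11 in HFoleic and -0.24 ± 0.12 in HFepa (limma adjusted p = 0.25 and 0.371). Slc6a13, the liver carrier of taurine and GABA, stood at 0.04 ± 0.07 and 0.02 ± 0.08, and the taurine carrier Slc6a6 at -0.10 ± 0.13 and -0.02 ± 0.14. The 3 tested probes of Slc6a6 ranged from -0.10 to 0.22 in HFoleic and from -0.12 to 0.15 in HFepa. The glycine carrier Slc6a9 stood at -0.11 ± 0.14 and 0.06 ± 0.14, and at -0.22 and -0.04 without reference replicate 5. Slc6a4, the serotonin carrier, was well above background on 9 of 9 reference, 5 of 8 HFoleic and 4 of 7 HFepa arrays, so that it entered the test through reference alone and was close to background elsewhere. It read 5.92 to 7.50 in reference, 5.58 to 6.89 in HFoleic and 5.67 to 6.43 in HFepa, with overlap between all groups. The glutamate carrier Slc1a2 read 11.22 to 12.31 in reference, 11.79 to 12.39 in HFoleic and 12.20 to 12.49 in HFepa, a difference from reference of 0.32 ± 0.11 (limma adjusted p = 0.194) and of 0.23 without reference replicate 5, the lowest. In Slc36, the proton-coupled carrier Slc36a1 stood at 0.41 ± 0.18 in HFoleic and 0.01 ± 0.18 in HFepa, with reference replicate 5 and HFoleic replicate 1 left out for outlier spots.

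Probes of the same gene often read different changes. For 15 genes 2 or more probes were tested, 36 probes in all. In HFoleic against reference the probes of 9 of these genes had estimates on both sides of 0, and the gap between the highest and lowest estimate of a gene ranged from 0.0085 to 0.48 log2 units with a median of 0.22. The 4 probes of Slc38a6 lay within 0.013 of each other in HFoleic, and ran from -0.23 to 0.04 in HFepa. For Slc43a3, Slc16a10 and Slc36a1 the gaps in HFoleic were 0.48, 0.47 and 0.46. The other 24 tested genes, Slc1a4, Slc1a5 and Slc7a2 among them, were read by 1 probe each.

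**Figure D4:**
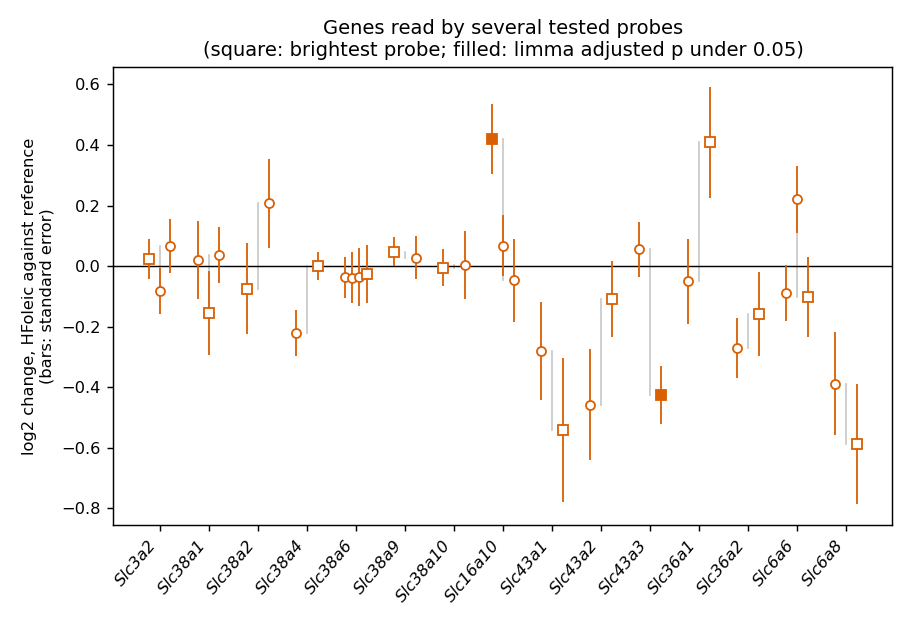
Log2 change in HFoleic against reference (limma estimate with standard error) of each tested probe of the 15 genes with several, the brightest as a square and probes at an adjusted p under 0.05 filled. The filled probes of Slc16a10 (0.42) and Slc43a3 (-0.43) stand away from the other probes of their gene (0.07 and -0.05, and 0.06).

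The second comparison, HFepa against reference, asked how the same diet stood against the low-fat group in the EPA lineage. Of the 60 member probes limma called 0, beside 0.393% of all 30003 probes (118 probes). The methods' t-test, which is unmoderated, called 0 of all tested probes, so its 0 member probes are no result about the members. At an unadjusted p under 0.05 there were 11 member probes (18.3%), 9 of them lower, beside 13.5% of all probes, and the median change of the member probes was -0.01 log2 units. The smallest unadjusted p-values were those of Slc7a2 (0.00227), a dimmer probe of Slc38a6 and Slc1a4 (0.00532). The 4 tested probes of Slc38a6 ran from -0.23 to 0.04 in this comparison.

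The third comparison, HFepa against HFoleic, set the lineages against each other on the obesogenic diet, with no reference mouse in the difference. Limma called 0 of the 60 member probes and 0% of all probes, and the methods' t-test called 0 of all probes as well. At an unadjusted p under 0.05 there were 6 member probes (10%), 3 higher and 3 lower, beside 9.70% of all probes. For the 5 genes called in HFoleic the estimate of HFepa minus HFoleic was opposite in sign to the HFoleic change. Since a gene picked for a large HFoleic change shares those HFoleic arrays with this difference, that sign is not independent of the choice.

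The difference between the lineages was 0.35 log2 units for Slc1a4 (95% interval 0.05 to 0.64, limma adjusted p = 0.429), 0.31 for Slc1a5 (-0.21 to 0.82) and 0.13 for Slc7a2 (-0.19 to 0.44). It was 0.18 for Slc43a3 (-0.03 to 0.39) and -0.25 for Slc16a10 (-0.50 to 0.01). An effect that passed the threshold in HFoleic and not in HFepa is therefore not shown to differ between them here. Slc38a2 stood at 0.42 ± 0.16 (limma adjusted p = 0.381), with 6 of 7 HFepa mice above the HFoleic mean. Its second, dimmer probe lay the other way, with a mean of 6.58 in HFepa and 6.71 in HFoleic, and 5 of 7 HFepa mice below the HFoleic mean.

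Genes of the same pathway outside these families were read from lists drawn up with earlier results of these data known. Over all probes limma called 3.19% lower and 4.05% higher in HFoleic against reference, and 0.393% in HFepa against reference. Hepatic amino acid catabolism and nitrogen handling had 37 tested genes, of which 13 were lower and 1 higher in HFoleic, with a median change of -0.21 against -0.00072 over all probes. The lower genes were the transaminases Got1 (-1.56) and Tat (-0.63), the serine dehydratases Sds (-0.96) and Sdsl (-1.14), the glutaminase Gls2 (-0.48), the urea cycle enzymes Cps1 (-0.89), Asl (-1.10) and Arg1 (-0.66), and Aass, Hgd, Hpd, Kynu and Mat1a. Glutamate dehydrogenase, Glud1, was higher (0.41). In HFepa 1 gene of the list, Got1 (-1.23, limma adjusted p = 0.0245), was lower and 0 were higher. The HFepa estimates of the list had a median of -0.20, with 30 of 37 negative and 19 at an unadjusted p under 0.05, beside 29 negative and 21 at that level in HFoleic. Both comparisons share the reference mice. Without reference replicate 5 the counts were again 13 lower and 1 higher in HFoleic, and 1 lower in HFepa.

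ATF4 response genes other than transporters gave calls in both directions in HFoleic, where 3.19% of all probes were lower and 4.05% higher. Of 30 tested, 5 were lower in HFoleic, namely asparagine synthetase Asns (-1.67), the hormone Fgf21 (-1.07), cystathionine gamma-lyase Cth (-0.80), the transaminase Gpt2 (-0.70) and the transcription factor Atf5 (-0.37). The 5 that were higher were the glutathione-degrading enzyme Chac1 (1.26), the lipoprotein receptor Vldlr (0.83), the serine synthesis enzyme Psph (0.36) and the transfer RNA synthetases Cars (0.35) and Wars (0.28). The list's median was -0.04. In HFepa 0 of 30 were called, beside 0.393% of all probes. At an unadjusted p under 0.05 there were 9 genes of the list in HFepa, with estimates of the list from -0.99 to 0.69, and 13 in HFoleic. Over all probes that share was 13.5% and 21.1%. Among other amino acid, peptide and lysosomal carriers and their accessory proteins 12 genes were tested. In HFoleic 1 was called, beside 7.23% of all probes, namely the creatine carrier Slc16a12 (0.42, limma adjusted p = 0.0437). Without reference replicate 5, 0 were called.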

How the data were processed

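Per the file headers, the authors deposited for each of the 24 arrays (Agilent mouse design, 1 colour) the scanner output of Agilent Feature Extraction 10.10.1.1, in which median, mean and background signals are intensities without normalization and the processed signal is an intensity corrected for background within the array. The deposited series table holds log2 median signals that the authors had filtered and quantile normalized (32176 probes, 2550 empty cells, filter not given in the sources used here). Set against the log2 median signals, the lowest correlation of its columns was 0.9997. Groups came from the sample labels.

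Here spots marked as outliers (134 to 627 per array) were dropped, log2 median signals were averaged per probe, probes that in any group were well above background on 75% or more of its arrays were kept (30003 of 56605), and values were quantile normalized. All 24 arrays entered a limma 3.58.1 fit (R 4.3.3) of group means with lmFit and eBayes, two-sided, with Benjamini-Hochberg adjustment over all tested probes of a comparison and calls at an adjusted p under 0.05. The fit was tested on simulated data. Python 3.11.15, pandas 2.3.3, numpy 2.4.6, matplotlib 3.10.9 and version 1.17.8 of data.table handled tables and figures. The number of arrays limits the precision.

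The members, lists and tests were chosen with earlier results of these data known. A gene was read from its brightest tested probe. Named by rule were genes with a called probe, the 10 with the smallest unadjusted p in each comparison, and 24 carriers known from hepatocytes regardless of values, of which Slc7a5 and Slc7a11 had no tested probe. Slc38a6, Slc7a7 and untested members were named after their values were seen, and genes of other lists where called. The values of 1 member are not reported here. Gene names and coordinates (mm9, 1-based) are those in the scanner files. Marker lists of 13 cell types or tissues were summed on the linear scale. Alternatives were another scaling, signal column, background correction, filter, block, sample set and test, the deposited table, and leaving out each array.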

Additional observations from a re-analysis of the deposited data

Results flagged for a closer look

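In each group of each named gene, a mouse was picked out when its distance from the nearest other mouse was large for the range of its group (Dixon's test). This held in 11 of 81 groups over 27 genes, and chance alone picks out about 1 in 20 groups. Reference replicate 5 accounted for 6 of the 11. It was the highest reference mouse for Slc6a8 (11.6, others 9.58 to 10.31), Slc7a2 (12.02, others 10.56 to 11.13), Slc43a2 (9.03, others 7.64 to 8.25) and Slc7a8 (7.54, others 6.72 to 7.06). It was the lowest for Slc1a2 (11.22, others 11.84 to 12.31) and Slc6a9 (12.26, others 12.99 to 13.48). Its marker sums for bile duct, all hepatocyte lists, macrophages, stellate cells, lymphocytes and neutrophils, endothelium, red cells and muscle also lay outside its group. Their part in these values was not tested.

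The remaining values belonged to other mice. Slc38a9 read 14.02 in reference replicate 4 (others 14.21 to 14.37), Slc6a13 read 13.5 in reference replicate 2 (others 13.74 to 13.94) and 14.28 in HFoleic replicate 3 (others 13.68 to 13.91), and Slc6a4 read 6.89 in HFoleic replicate 3 (others 5.58 to 6.12). Slc16a10 read 9.91 in HFepa replicate 2 (others 9.19 to 9.50).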

How the results depend on the processing

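In HFoleic against reference the 5 called members became 3 without the filter on dim probes, where 123 member probes were tested, and 3 to 7 when 1 array was left out (3 without HFoleic replicate 2 or reference replicate 1, 7 without reference replicate 9). It was 4 to 6 under the other alternatives. Slc1a4, Slc7a2 and Slc43a3 were called under all 12 alternatives and in all 24 fits that left out 1 array. Slc1a5 lost its call under 8 alternatives and Slc16a10 under 2, the missing filter and the methods' t-test. The cause was not tested. In both comparisons of HFepa 0 members were called under every alternative and leave-out. Calls over all probes in HFepa against reference ranged from 0 to 497 when 1 array was left out. In HFepa against HFoleic they ranged from 0 to 15. With so few calls over all probes, 0 calls among the members are no result about the members. No estimate of a named gene that was called reversed. Replicate numbers are shared between groups, and the deviations of same-numbered mice correlated at -0.30 to 0.35. Differently numbered mice were not set beside them, so these values cannot decide whether the numbers pair the mice. The main fit did not pair them. With the replicate block 5 members were called, 4 of them shared with the unblocked fit. There Slc36a4 was called (-0.28, limma adjusted p = 0.0236) and Slc1a5 was not. Slc36a4 was also called with the processed signal (-0.45, adjusted p = 0.0453), normexp (0.0481) and the strict filter (0.0449), and Slc38a7 under the methods' t-test (0.0402). Members not well above background have no usable change here.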
